A study of Mus musculus with 158 samples.

Results

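Liver RNA was measured in 4 of the 17 RNA-seq samples of a series of 158 samples, and these are the samples labelled Liver with a gene table of expected counts. Replicate 1 came from a B6xPWK mouse cross, replicates 2 and 3 from B6xSPRET and replicate 4 from B6xC3H, where B6 is a C57BL/6J mother and the second strain (PWK/PhJ, SPRET/EiJ or C3H/HeJ) is the father of the F1 hybrid. They were set against 4 kidney and 4 lung samples of the same crosses in the same numbers, and against 5 B cell samples (2 of B6xPWK and 1 each of B6xCAST, B6xC3H and B6xSPRET, where CAST is CAST/EiJ and where the study's own sample list gives the B6xCAST sample as B6xC3H). No treatment or engineered allele separated the groups, and every sample carried 1 C57BL/6J genome. Solid tissues were whole organs, usually pooled from several mice. All mice were 8 weeks old. B cells were taken from femoral marrow of females by removing cells that bear CD43 or Mac-1 (CD11b). The libraries were made from total RNA with a kit that keeps the strand. Each sample is 1 table, so the p-values below measure the spread between these tables. B6xCAST was present among the B cells only.

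The liver makes most plasma proteins, assembles and clears lipoproteins, forms bile acids from cholesterol, breaks down amino acids with the urea cycle as the outlet for their nitrogen, and modifies drugs and hormones with cytochrome P450 and transferase enzymes. Hepatocytes, which make up most of its mass, owe this pattern to factors such as HNF4, C/EBP and FOXA. Some genes of this kind share their exons with a gene that is transcribed the other way. A read of a stranded library belongs to 1 of the 2 genes, and the table decides which row receives it.

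For that reason each row of the tables (a feature) was read together with the gene on the other strand: the gene whose exons overlap its exons, failing that the gene whose body overlaps it, failing that the nearest gene of the other strand within 5000 bp. Levels are given as CPM, counts scaled to the same total in every sample, which compare samples for 1 feature and are not corrected for length, so a level is not compared between features as a transcript number. A feature was called higher or lower when edgeR's quasi-likelihood test gave an adjusted p under 0.05. In bulk samples, fewer cells of a type and less RNA per cell cannot be told apart.

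The stretches that belong to exons of both genes are shown first for 4 pairs, because a read there can be given to either row. Each is written 5′ to 3′ along the named protein-coding gene, in GRCm38.p6. Capitals mark bases that are exon in both genes and lie in the coding sequence of the named one, and the 20 lower-case bases at either end are the flanks.
Abcb11 with Gm13613, chr2:69261411-69261586, minus strand: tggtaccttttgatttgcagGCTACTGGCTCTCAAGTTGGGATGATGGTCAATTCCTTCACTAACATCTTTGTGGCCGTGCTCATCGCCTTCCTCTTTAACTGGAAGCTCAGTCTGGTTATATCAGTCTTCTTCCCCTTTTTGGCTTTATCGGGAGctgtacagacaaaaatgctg
Fgg with Gm30097, chr3:83008354-83008508, plus strand: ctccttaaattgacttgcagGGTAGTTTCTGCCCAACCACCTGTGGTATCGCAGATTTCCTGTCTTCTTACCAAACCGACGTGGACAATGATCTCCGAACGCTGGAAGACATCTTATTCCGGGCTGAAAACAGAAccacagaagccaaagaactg
Bhmt with Gm15622, chr13:93625362-93625508, minus strand: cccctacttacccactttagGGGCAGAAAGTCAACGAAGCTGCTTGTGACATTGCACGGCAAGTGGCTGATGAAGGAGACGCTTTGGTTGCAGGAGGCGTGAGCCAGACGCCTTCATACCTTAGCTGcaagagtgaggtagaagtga
Hmgcs1 with Gm48342, chr13:119704413-119704551, plus strand: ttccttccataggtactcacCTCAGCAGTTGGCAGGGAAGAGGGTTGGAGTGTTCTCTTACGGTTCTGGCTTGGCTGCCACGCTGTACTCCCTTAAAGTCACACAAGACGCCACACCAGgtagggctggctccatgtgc

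Promoters of the bile salt export pump gene Abcb11 and the apolipoprotein gene Apoa5 are shown from RefSeq (GRCm38.p6, 250 bases before to 50 bases after the start), because both starts lay in open chromatin in every liver set and in no other set, as given below, while the row opposite each gene held more counts in liver than its own.
Abcb11, chr2:69342567-69342866, minus strand: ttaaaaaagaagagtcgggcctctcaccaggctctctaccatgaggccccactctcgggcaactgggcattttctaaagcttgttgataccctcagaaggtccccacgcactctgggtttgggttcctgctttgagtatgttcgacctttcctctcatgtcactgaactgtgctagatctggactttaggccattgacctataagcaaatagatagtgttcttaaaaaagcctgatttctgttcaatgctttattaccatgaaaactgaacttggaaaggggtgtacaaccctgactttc
Apoa5, chr9:46268358-46268657, plus strand: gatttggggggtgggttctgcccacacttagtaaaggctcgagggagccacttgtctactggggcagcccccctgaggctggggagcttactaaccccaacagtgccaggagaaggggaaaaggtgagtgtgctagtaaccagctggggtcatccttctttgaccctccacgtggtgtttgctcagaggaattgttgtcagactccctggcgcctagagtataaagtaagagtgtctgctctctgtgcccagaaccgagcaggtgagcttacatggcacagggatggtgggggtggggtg

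The libraries were shallow. Expected counts summed to 283725 to 322257 in liver and to 285191 to 809337 in the 13 other samples. The 10 highest features took 27.9% to 43.1% of the counts in liver (34.9% ± 7.12, SD, n = 4) and 21.8% ± 4.48 (SD, n = 13) elsewhere (two-sided exact permutation test, p = 0.00168, adjusted p = 0.00252 over 3 tests). Features at 1 CPM or more numbered 6626 to 9363 in liver, 8270 ± 1209 (SD, n = 4), against 12948 ± 995 (SD, n = 13) elsewhere (exact permutation, p = 0.00084, the smallest this design allows, adjusted p = 0.00252). At these totals 1 CPM is less than 1 count. Liver had the lowest totals along with B cell replicate 5, and the part of the totals in these numbers of features was not tested. Features whose exons overlap exons of the other strand held 88.1% ± 1.57 (SD, n = 4) of the liver counts and 83.2% ± 3.89 (SD, n = 13) of the others (exact permutation, p = 0.00756, adjusted p = 0.00756). Kidney, at 85.3% to 88.4%, overlapped liver, at 86.7% to 90.4%. The call did not hold without the 10 highest features of each sample (a difference of 2.685 percentage points, exact permutation p = 0.167) or with gene bodies in place of exons (0.487 points, exact permutation p = 0.571). TMM factors were 0.371 to 0.674 in liver, 0.722 to 0.912 in kidney and 1.21 to 1.88 in lung and B cell.

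**Figure D1:**
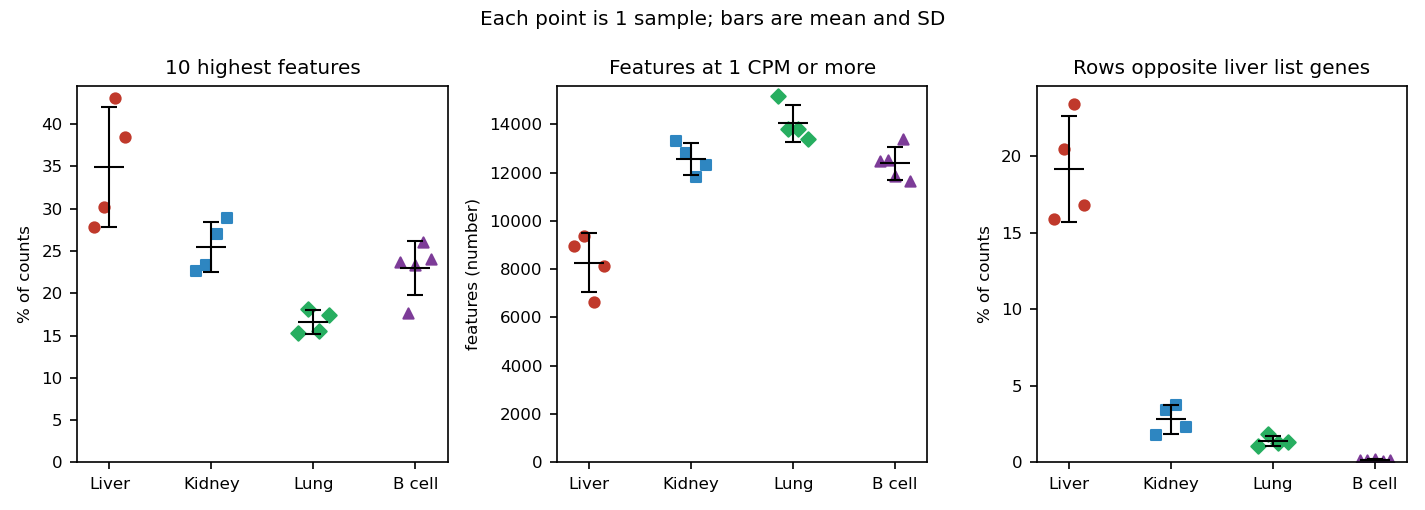
Share of counts on the 10 highest features of each sample, number of features at 1 CPM or more, and share of counts on rows opposite genes of the liver lists, by tissue; each point is 1 sample, and the black bars are mean and SD (n = 4, 4, 4 and 5). The liver samples hold 15.9% to 23.4% of their counts on rows opposite liver list genes, and no other sample holds more than 3.77%.

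Of 4479 features tested against the mean of kidney, lung and B cell, 975 (21.8%) were higher and 963 (21.5%) lower in liver. With total counts in place of TMM factors, 456 (10.2%) were higher and 2618 (58.5%) lower, so that 14.8% of the calls in place of 50.3% were higher, and the median log2 fold change of all features moved from -0.35 to -1.52. Unless total counts are named, log2 differences below use TMM factors, and they are tested against 0 and not against that median. CPM levels are scaled to total counts, so a fitted difference can be larger than the ratio of the CPM given beside it. Against single tissues, 442 (9.87%) were higher and 689 (15.4%) lower than in kidney, 924 (20.6%) higher and 1373 (30.7%) lower than in lung, and 1252 (28.0%) higher and 1338 (29.9%) lower than in B cell. With total counts these shares were 5.60% and 30.7% for kidney, 7.61% and 66.2% for lung, and 16.3% and 57.6% for B cell. The comparisons share the 4 liver samples.

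Among called features whose liver mean reached 50 CPM, the 20 furthest above the other tissues had every liver sample above all 13 others. Of these, 12 had exons on exons of a gene of the other strand, 2 lay over such a gene's body, 2 had such a gene within 5000 bp, and 4 had none. All 20 kept their call with total counts in place of TMM factors. Where a tissue had 3 counts or fewer, the fitted fold change depends on the small count the model adds, so no fitted fold against such a tissue, or against a mean that includes it, is given below for a single feature. The medians of gene lists are over fitted values that include such features.

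**Figure D2:**
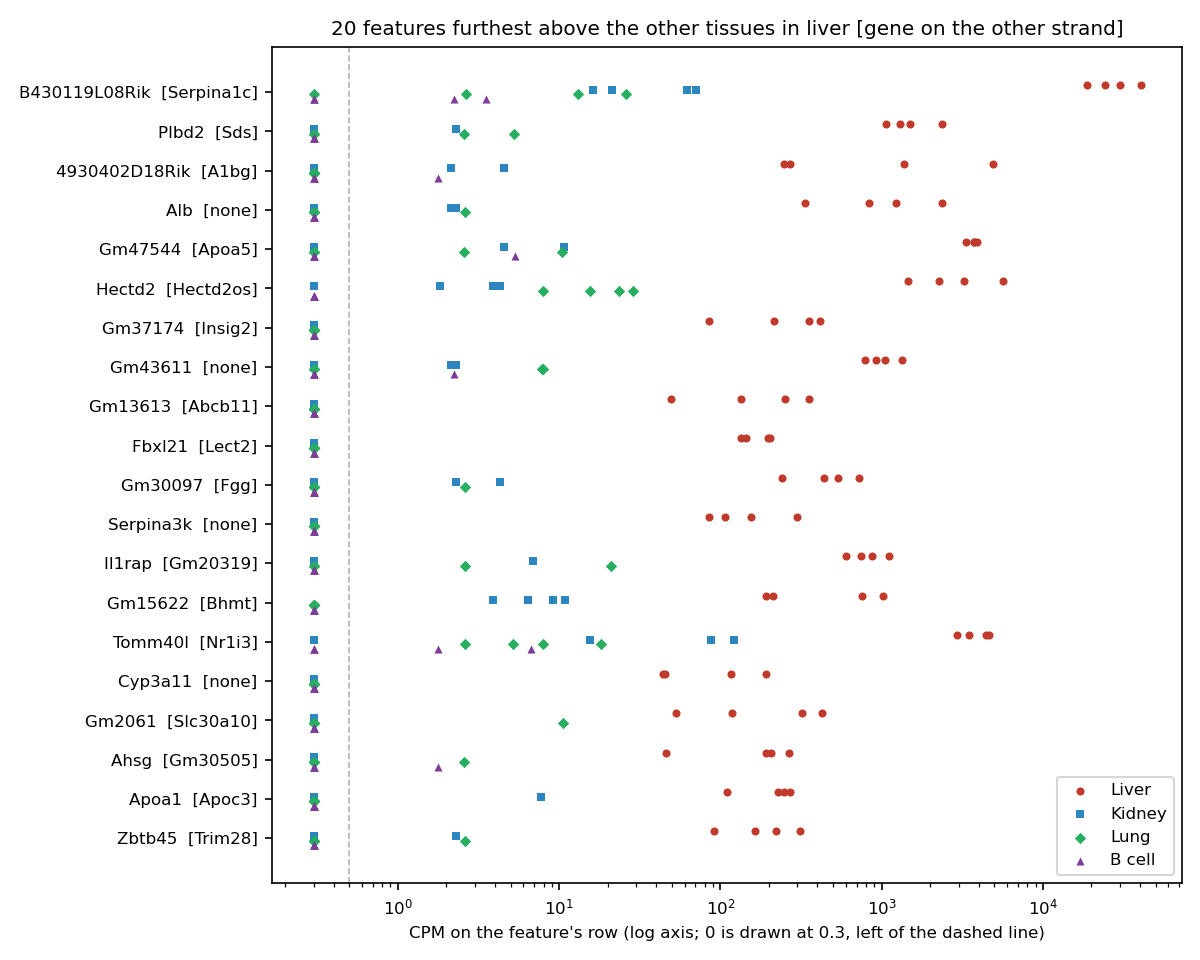
CPM in each of the 17 samples for the 20 features furthest above the other tissues in liver, on a log axis, with the gene of the other strand in brackets; 0 is drawn at 0.3. The 4 liver samples lie to the right of all kidney, lung and B cell samples in every line.

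The features are grouped below by the gene they were read with, and not in order of fold change. Rows opposite or near genes of secreted proteins are given first. Ccdc152 is placed with them for its level and is not among the 20. The antisense transcript B430119L08Rik (chromosome 12, 103895897 to 103898784, plus strand) shares 429 exonic bases with Serpina1c, one of several near-identical genes for alpha-1 antitrypsin, the main inhibitor of neutrophil elastase in plasma. It stood at 29993, 40393, 18867 and 24375 CPM in liver replicates 1 to 4, and at no more than 70.9 CPM in any other sample. Kidney came next, with 16.3 to 70.9 CPM, and liver was higher by 10.00 ± 0.81 (SE) on the log2 scale (adjusted p = 1.63e-09). The row of Serpina1c itself held 87.5, 65.9, 31.4 and 141 CPM in the livers, a mean 349 times below the row opposite. How reads were divided among the Serpina1 copies cannot be told from the tables.

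Ccdc152, a protein-coding gene with a coiled-coil domain, was the highest feature of all in liver and shares 439 exonic bases at its end with Selenop, the selenium carrier of plasma. Its row held 57604, 90252, 167899 and 85379 CPM, which is 9.86% of all liver counts. Kidney had 7853 to 21282 CPM, lung 5593 to 13438 and B cell 93.9 to 1013, so the order was liver, kidney, lung and B cell, with kidney and lung overlapping. The log2 difference was 3.54 ± 0.67 (SE) against kidney (adjusted p = 0.00025), 5.10 ± 0.72 against lung (adjusted p = 3.87e-06) and 8.86 ± 0.77 against B cell (adjusted p = 9.34e-10). With total counts these differences were 2.72, 3.42 and 7.21. The Selenop row averaged 132 CPM in liver and was itself higher than elsewhere (adjusted p = 5.22e-12).

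Gm47544 lies across Apoa5, an apolipoprotein that sets the clearance of plasma triglyceride, and shares 524 exonic bases with it. It was the steadiest of the strongly liver-high rows, at 3717, 3737, 3341 and 3894 CPM, against at most 10.7 CPM elsewhere. Liver exceeded kidney by 10.58 ± 0.83 (SE) on the log2 scale (adjusted p = 1.08e-09), from 7 kidney counts. The Apoa5 row held 10.0 to 34.8 CPM in liver.

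4930402D18Rik, opposite A1bg, which encodes the plasma glycoprotein alpha-1-B, was far less even. It stood at 272, 4875, 247 and 1375 CPM, so the 2 B6xSPRET livers held its highest and its lowest level. No other sample exceeded 4.57 CPM. Gm30097, opposite the fibrinogen gamma chain gene Fgg, held 538, 721, 240 and 441 CPM and at most 4.29 elsewhere. Fbxl21, an F-box gene, has Lect2, a liver-secreted protein, 4565 bp away on the other strand, and had 134 to 202 CPM in liver and 0 counts in all 13 other samples. Against a floor of 3 counts over those samples, it was at least 340-fold higher in liver.

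Another 3 rows lie opposite genes of amino acid catabolism and bile transport. Plbd2, a lysosomal phospholipase-like gene, shares 360 exonic bases with Sds, the serine dehydratase that feeds serine into gluconeogenesis. Its row held 2369, 1291, 1494 and 1061 CPM in liver, whereas kidney had 1 count, lung 3 and B cell 0 (adjusted p = 7.58e-15 against the mean of the others). The Sds row stayed at 0 to 9.49 CPM in liver. Gm15622, opposite the betaine-homocysteine methyltransferase gene Bhmt, stood at 756, 1018, 211 and 192 CPM, and kidney came next at 3.87 to 10.9 CPM (log2 difference 6.63 ± 0.53 SE, adjusted p = 5.04e-08). Gm13613, opposite Abcb11, the bile salt export pump, held 253, 354, 49.3 and 133 CPM and 0 counts elsewhere, at least 397-fold higher against the same floor.

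Rows opposite genes of regulators and membrane proteins are given next. Tomm40l, a paralogue of the mitochondrial import pore, has 3304 exonic bases in common with Nr1i3, which encodes CAR, the nuclear receptor that induces cytochrome P450 genes. Its row held 2948, 4438, 4621 and 3475 CPM in liver and 0 to 122 CPM in kidney, a log2 difference of 6.80 ± 0.85 (SE, adjusted p = 1.04e-06). The row of Nr1i3 ran the other way, at 285, 207, 204 and 137 CPM in liver against means of 556, 413 and 334 CPM in kidney, lung and B cell. It was not called with TMM factors (log2 difference 0.14, adjusted p = 0.701) and was lower with total counts (-1.07, adjusted p = 0.00126). Gm37174 lies within Insig2, a sterol-sensing regulator of SREBP processing, and had 84.6 to 414 CPM in liver and 0 counts elsewhere, at least 540-fold higher against the floor. Gm2061, opposite the manganese exporter gene Slc30a10, held 427, 320, 52.9 and 118 CPM, with 4 counts in lung and 0 in kidney and B cell.

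Less is known of 3 further rows. Hectd2 shares 1834 exonic bases with its antisense transcript Hectd2os and held 1458 to 5663 CPM in liver, 7.89 to 28.6 in lung and 0 in B cell (8.96 ± 0.69 SE above lung on the log2 scale, adjusted p = 4.42e-09). Il1rap, the accessory chain of the interleukin 1 receptor, lies opposite Gm20319 and held 603 to 1118 CPM in liver against at most 20.8 elsewhere. Gm43611, with no gene on the other strand within 5000 bp, held 793 to 1341 CPM against at most 7.89.

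Of the remaining 6 features, 5 carry the name of a liver gene. Alb, the gene of serum albumin, has no gene on the other strand within 5000 bp and stood at 1230, 834, 335 and 2380 CPM in liver, with 3 counts in all 13 other samples together. The pooled ratio was 2455 with a 95% counting interval of 840 to 11903. Apoa1, the main protein of HDL, held 109 to 269 CPM against 4 counts in kidney and 0 in lung and B cell. Ahsg (fetuin A) held 45.8 to 267 CPM with 2 counts elsewhere, a pooled ratio of 545 with an interval of 151 to 4497. Serpina3k, a protease inhibitor of plasma, and Cyp3a11, a main drug-metabolizing cytochrome P450, were at 0 in all 13 other samples and held 84.6 to 298 and 44.3 to 192 CPM in liver. Zbtb45, which lies over the body of Trim28, held 91.6 to 310 CPM with 2 counts elsewhere. These intervals and floors cover counting error only.

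Among the 10 highest features by liver level, only Ccdc152, B430119L08Rik, Gm47162 and Gm44729 had all liver samples above all others. Gm44729 lies opposite Sephs2, which makes the selenium donor for selenoproteins, and held 24160, 13524, 12202 and 13945 CPM in liver, 3731 to 3978 in kidney, 208 to 415 in lung and 341 to 602 in B cell. Its difference from kidney was 2.70 ± 0.40 (SE) on the log2 scale (adjusted p = 1.19e-05). Gm47162, opposite the sterol carrier pseudogene Scp2-ps2, held 13511 to 21796 CPM against 5542 to 7411 in kidney (2.30 ± 0.43 SE, adjusted p = 0.000212), and reads of a pseudogene and its parent may be shared.

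The other 6 overlapped with at least 1 tissue. Gm10252, opposite the ferritin light chain gene Ftl1, and Gm47428, opposite Ftl1-ps1, did not differ from kidney by the test (0.71 ± 0.61 SE, adjusted p = 0.442, and 1.11 ± 0.50 SE, adjusted p = 0.113) and were higher than in lung and B cell. Reads of these copies may again be shared. mt-Nd5, which shares 14 bases with mt-Nd6, held 15360 to 40669 CPM in liver and 18691 to 37011 in kidney (adjusted p = 0.441). AY036118, opposite Gm42418 in the ribosomal RNA repeat, ranged from 1911 to 91452 CPM among the livers with up to 20292 in lung, and it was called higher (adjusted p = 2.67e-06). Gm17300, opposite the small nucleolar RNA host Snhg3, was not called (adjusted p = 0.0603), but was without liver replicate 2, kidney replicate 3 or B cell replicate 4 (adjusted p = 0.0363, 0.022 and 0.0328). Gm26825, opposite the pseudogene Gm15459, was called higher with TMM factors (log2 1.26, adjusted p = 0.0133) and not with total counts (log2 -0.0024). Its kidney levels, 45165 to 85600 CPM, lay mostly above the livers' 33656 to 51443 CPM, and the call was lost without liver replicate 3 (0.95, adjusted p = 0.0842) or 4 (0.93, adjusted p = 0.0937).

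**Figure D3:**
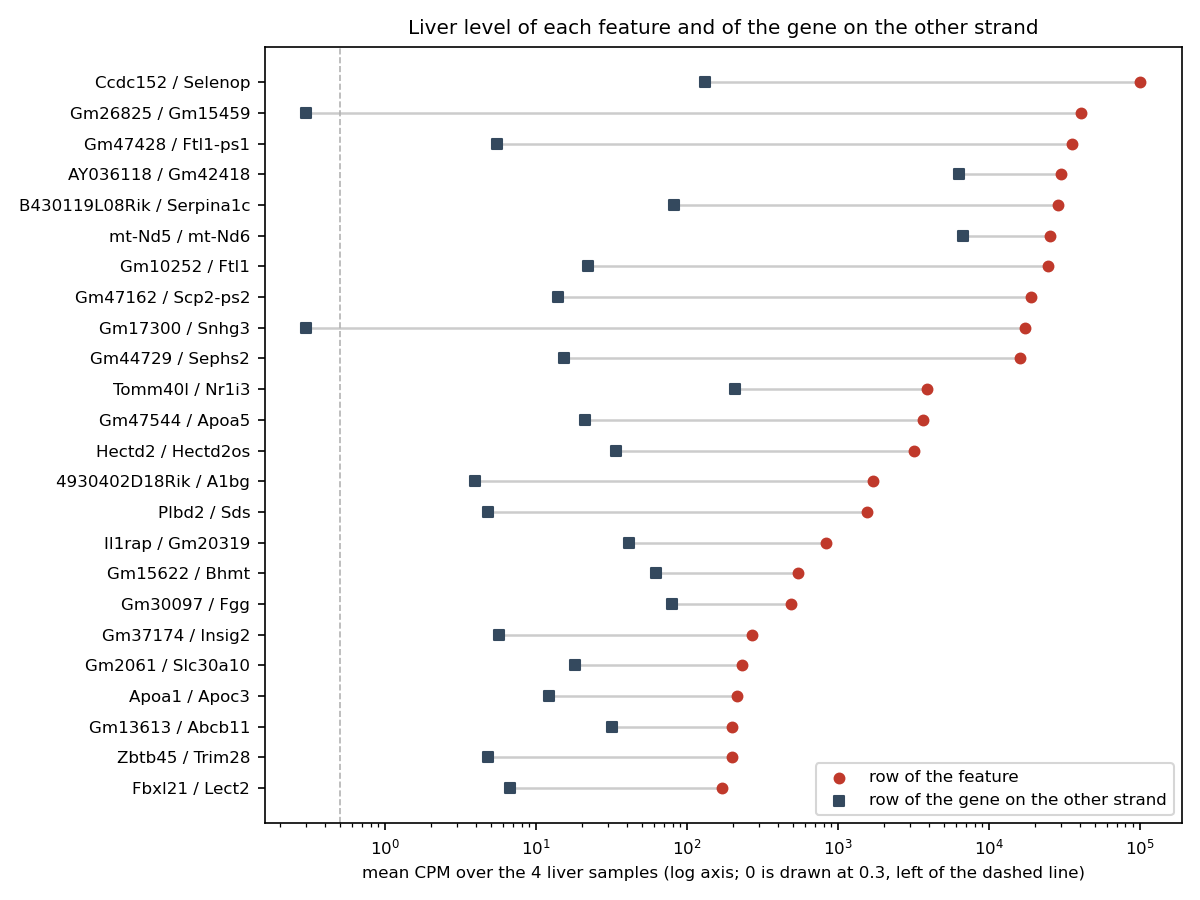
Mean CPM over the 4 liver samples on the row of each liver-high or high-level feature (red circles) and on the row of the gene of the other strand (dark squares), on a log axis, with 0 drawn at 0.3. The feature's row lies above its partner's in every line, from 100283 against 132 CPM for Ccdc152 and Selenop down to 169 against 6.70 CPM for Fbxl21 and Lect2. The lines were chosen by the liver rise or level of the feature's own row, which favours that order.

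Of the 975 features higher in liver, 742 (76.1%) had exons opposite exons of another gene, against 63.0% of all tested features with a known position and 56.9% of those lower in liver, shares whose difference was not tested. The gene opposite was protein-coding for 63.6% of the higher features and 50.6% of all. The share of features that are not protein-coding themselves was 43.3% and 42.7%. Where the opposite gene was in the tables, the feature's row was above it in liver for 644 of 740 higher features, and for 1986 of 2798 over all, but the higher features were chosen by that same row. Both rows of a pair could be tested for 328 of the higher features, and the opposite row was also higher for 141 and lower for 37. With the calls that hold under both scalings, 70.8% of 456 had exons opposite.

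Open chromatin offered a measure that the tables did not use. DNase I hotspots, stretches where chromatin is open to the enzyme, had been called on pooled samples of 5 hybrids (the hybrids above and B6x129) in each of the 4 tissues, which gives 5 liver sets and 15 others. The start of a gene was taken as the outer end of its annotation, and other starts of the same gene were not counted. At Sds a hotspot lay within 1000 bp of the start in 5 of 5 liver sets and in 0 of 15 others, whereas at Plbd2 it lay there in all 20. The starts of Serpina1c, Apoa5, Insig2 and Abcb11 were also marked in 5 liver sets and 0 others. Unlike that of Plbd2, the starts of the features opposite 3 of them were not marked in all 20 sets. B430119L08Rik, Gm47544 and Gm13613 had a hotspot in 5 liver sets and in 0, 4 and 2 others. Insig2 has further RefSeq starts, with promoters at chr1:121327975-121328274 and chr1:121327629-121327928. These lie at or next to the start of Gm37174 (121328092), which was marked in all 20 sets. The start of Tomm40l was marked in all 20 sets and that of Nr1i3 in 5 liver and 4 kidney sets. A1bg had none at the end used in any set, and at Selenop 3 liver, 2 kidney, 1 lung and 1 B cell set had one. The RefSeq promoters of A1bg (chr15:60921221-60921520) and Selenop (chr15:3270517-3271026) lie more than 1000 bp from the ends used. Hotspots at those promoters were not examined.

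Over the 16 of these 20 features with a gene on the other strand, that gene's start was marked in all 5 liver sets for 15, in those and no other set for 6, and in all 20 sets for 0. The feature's own start was marked in all 5 liver sets for 14, in those and no other set for 2, and in all 20 sets for 7. The 6 opposite genes include Gm30505, an antisense transcript opposite Ahsg, so in that pair the liver gene is the feature. The starts of that pair lie 3109 bp apart. These counts rest on 1 start per gene, and other starts could change them. For Trim28 the RefSeq promoter (chr7:13023902-13024201) lies away from the end used, and the Insig2 starts next to Gm37174 were left out. Pairs can share a hotspot where their starts lie close, so a wider count took pairs with starts at least 5000 bp apart and exons overlapping. A start marked in 5 liver sets and in at most 5 of the others was found on the opposite gene for 31 of 524 features higher in liver (5.92%), against 45 of 2053 tested pairs (2.19%) and 4 of 428 lower in liver (0.935%). On the feature itself the shares were 4.96%, 3.26% and 2.80%. These are counts of pairs with no test, since the hotspot sets are pooled.

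**Figure D4:**
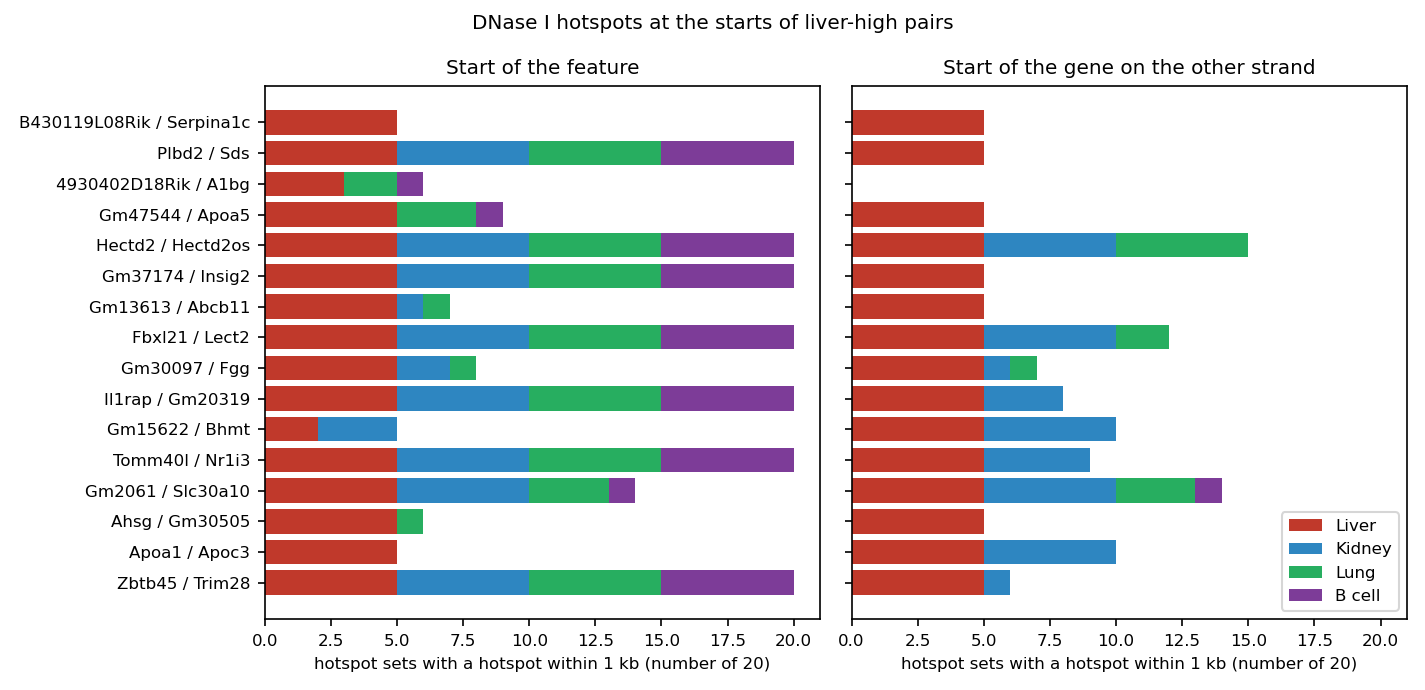
Number of the 20 DNase I hotspot sets (5 per tissue) with a hotspot within 1 kb of the start of the feature (left) and of the gene of the other strand (right), for the 16 liver-high pairs. On the left 7 starts are marked in all 20 sets, on the right none is, and 6 are marked in the 5 liver sets alone. Only 1 start per gene is shown, at the outer end of its annotation.

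The 298 genes of 10 liver lists that the tables hold were then followed on their own rows and on the rows opposite. For 47 of them a feature outside the lists had exons opposite their own, and these 55 features held 15.90%, 20.50%, 23.43% and 16.80% of all counts in liver replicates 1 to 4. In kidney they held 1.78% to 3.77%, in lung 1.05% to 1.87% and in B cell 0.123% to 0.192%. The own rows of all 298 genes together held 1.42%, 1.06%, 0.412% and 1.36% in the livers and 0.246% to 0.445% in the other samples. Ccdc152 alone made up 5.76%, 9.03%, 16.8% and 8.54% of the counts in liver replicates 1 to 4. Without it the opposite rows held 10.1%, 11.5%, 6.64% and 8.26%, so replicate 3 moved from the highest to the lowest of the livers, while kidney held 0.991% to 1.65%, lung 0.475% to 0.525% and B cell 0.0806% to 0.113%.

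Of the own rows, 48 passed the filter on low counts, 34 of which were higher and 4 lower in liver, where 21.8% and 21.5% of all tested features were. Of the 57 rows opposite, counted list by list, 35 passed, 31 of which were higher and 0 lower. Rows that were high in liver alone passed that filter through liver, so these counts are descriptions of rows that could hardly have been called otherwise. With total counts 28 and 6 of the own rows and 29 and 1 of the opposite rows were called higher and lower. On their own row 16 genes had no count in any liver.

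**Figure D5:**
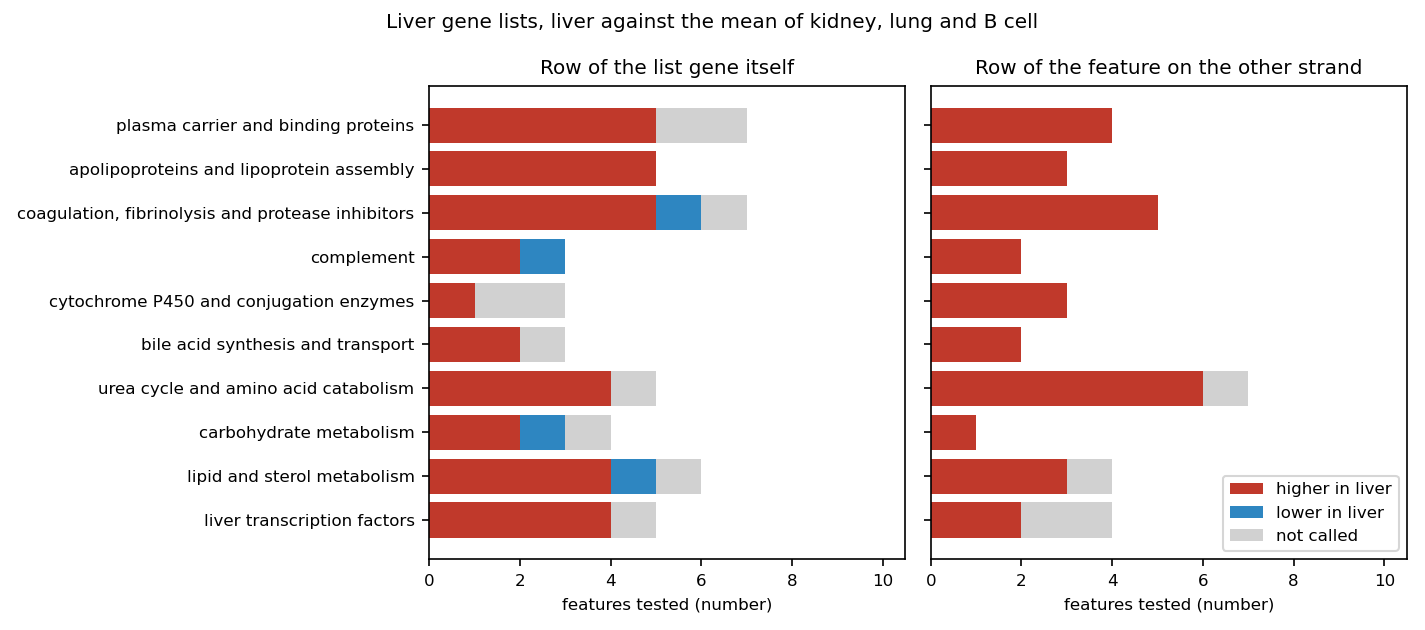
Number of features tested in each of 10 liver gene lists, on the list gene's own row (left) and on the row of the feature with exons opposite it (right), coloured by the call of liver against the mean of kidney, lung and B cell. On the right 31 of 35 rows are higher in liver and 0 lower, and on the left 34 of 48 are higher and 4 lower.

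Plasma carrier and binding proteins had 5 of 7 own rows and 4 of 4 opposite rows higher in liver, with median log2 fold changes of 7.46 and 7.07, where the median of all features was -0.35. With total counts 3 of the 4 opposite rows were higher, and Hps3, opposite Cp, was not (0.28, adjusted p = 0.591). Besides Ccdc152 and 4930402D18Rik, named above for Selenop and A1bg, Trf, the gene of transferrin, held 446, 344, 106 and 658 CPM on its own row with 15 counts elsewhere (adjusted p = 3.96e-14). Apolipoproteins and lipoprotein assembly had 5 of 5 own rows and 3 of 3 opposite rows higher, with medians of 8.26 and 8.50. Gm10680, opposite Apoa4, held 3185, 2573, 3909 and 4068 CPM against at most 387 in the other samples (adjusted p = 1.03e-10). Apoe held 627 to 2274 CPM on its own row against at most 39.2, and Apob 35.2 to 388 against at most 65.2, which overlap.

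Coagulation, fibrinolysis and protease inhibitors had 5 of 7 own rows higher and 1 lower, and 5 of 5 opposite rows higher. The lower one was Serpinc1, the gene of antithrombin, at 60.1, 73.4, 35.2 and 77.6 CPM in liver and means of 307, 518 and 563 CPM in kidney, lung and B cell (-1.67 ± 0.25 SE, adjusted p = 9.19e-06). The row opposite it, Zbtb37, a zinc finger gene, held 1417, 1695, 747 and 1365 CPM in liver and at most 31.6 elsewhere (7.38 ± 0.32 SE, adjusted p = 7.08e-15). Gm10069, opposite Pzp, an alpha-2-macroglobulin relative, held 1055 to 3868 CPM against at most 1009.

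Complement had 2 of 3 own rows higher and 1 lower, and 2 of 2 opposite rows higher. The Masp2 row, for the protease of the lectin pathway, was lower in liver, at 193, 190, 116 and 254 CPM against means of 683, 1059 and 1260 CPM (-1.16 ± 0.25 SE, adjusted p = 0.000658). Tardbp, the gene of the widely expressed RNA-binding protein TDP-43, whose exons overlap Masp2, held 4188, 3761, 2742 and 6014 CPM in liver and at most 55.8 CPM in any other sample (8.69 ± 0.45 SE, adjusted p = 1.2e-13). Gm16567, opposite C1s1, held 1308 to 2516 CPM against at most 642, while the C1s1 row had 0 to 9.31 CPM. On its own row C3 held 88.1 to 531 CPM against at most 15.6 (adjusted p = 4.29e-13).

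Cytochrome P450 and conjugation enzymes had 1 of 3 own rows and 3 of 3 opposite rows higher, from 60 genes. Gm20528, which lies opposite several Ugt1a genes whose shared exons make glucuronosyltransferases, held 15145, 14892, 8970 and 13759 CPM in liver, a mean of 5294 in kidney and 253 in lung (6.74 ± 0.45 SE against the mean, adjusted p = 8.25e-12). Gm15883, opposite Cyp2f2, a P450 of lung club cells and liver, held a mean of 552 CPM in liver and 1568 in lung. Gm45724, opposite the carboxylesterase gene Ces3a, held 67.0 to 247 CPM with 3 counts elsewhere.

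Bile acid synthesis and transport had 2 of 3 own rows and 2 of 2 opposite rows higher, and with total counts 1 own row was higher and 1 lower. Cyp8b1, the enzyme that makes cholic acid, averaged 25.2 CPM in liver, below 88.6 in lung and 44.1 in B cell. Only kidney was lower, at 1.63 CPM from 3 counts. Its call as higher (adjusted p = 0.0149) was lost with total counts (adjusted p = 0.50). 9430064I24Rik, opposite Hsd3b7, the dehydrogenase that both routes of bile acid synthesis pass through, held 6266, 5022, 3369 and 5461 CPM in liver against at most 532 elsewhere (6.09 ± 0.24 SE, adjusted p = 2.69e-15). Hsd3b7 itself held 0 to 25.3 CPM. Slco1a1, an organic anion transporter, averaged 50.4 CPM in liver and under 1 CPM in each other tissue and did not pass the filter. Slc10a1, the bile salt uptake transporter, was not called, with means of 44.4 CPM in liver and 69.6, 125 and 136 CPM in kidney, lung and B cell, and was lower with total counts (-1.28, adjusted p = 0.0102).

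Urea cycle and amino acid catabolism had 4 of 5 own rows and 6 of 7 opposite rows higher, with medians of 6.10 and 8.58. With total counts 3 own and 5 opposite rows were higher, since Gstz1 (from 1.04, adjusted p = 0.00905, to -0.085, adjusted p = 0.864) and the row opposite it, Pomt2 (from 1.81, adjusted p = 0.000651, to 0.66, adjusted p = 0.145), lost their calls. Sardhos and AW495222 lie opposite Sardh and Dmgdh, which take methyl groups from sarcosine and dimethylglycine. They held 744 to 2426 and 286 to 804 CPM in liver, with kidney next at means of 566 and 194 CPM. Kidney and liver thus overlapped for Sardhos, whose highest level outside liver was 773 CPM, and not for AW495222, whose was 236.

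Carbohydrate metabolism had 2 of 4 own rows higher and 1 lower, and 1 of 1 opposite rows higher. The own row of Pcx, the gene of pyruvate carboxylase, was higher with TMM factors (1.64, adjusted p = 0.0148) and not with total counts (0.49, adjusted p = 0.411). Hcn3, an ion channel gene opposite the liver pyruvate kinase gene Pklr, held 1695, 1422, 1043 and 1207 CPM in liver and at most 331 elsewhere (6.74 ± 0.40 SE, adjusted p = 1.09e-12), and the Pklr row held 0 CPM in 3 of the 4 livers. The lower row was Tkfc, a fructose-pathway kinase, at 0 to 6.67 CPM, named here after its values were seen.

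Lipid and sterol metabolism had 4 of 6 own rows higher and 1 lower, and 3 of 4 opposite rows higher. With total counts 3 own rows were higher, and Sqle, the squalene epoxidase gene, was not (from 0.88, adjusted p = 0.0212, to -0.30, adjusted p = 0.425). Gm48342, opposite Hmgcs1 of the mevalonate pathway, held 7528, 12226, 8681 and 3730 CPM in liver against at most 3078 elsewhere (4.18 ± 0.26 SE, adjusted p = 2.24e-12). Dlec1, opposite the peroxisomal thiolase gene Acaa1b, held 2153 to 8034 CPM against at most 2123, and Gm45244, opposite the acyl-CoA synthetase gene Acsl1, held 352 to 1002 against at most 284. Fabp1, the liver fatty acid binding protein gene, held 91.6 to 155 CPM on its own row and means of at most 1.14 elsewhere.

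Liver transcription factors had 4 of 5 own rows and 2 of 4 opposite rows higher. With total counts 2 own rows were higher and 1, that of Nr1i3, lower, and of the opposite rows 2 were higher and 1, Il4i1 opposite Atf5, lower (-1.83, adjusted p = 0.00164). Cebpb lost its call (from 1.48, adjusted p = 0.0092, to 0.36, adjusted p = 0.526). Genes given in this and the preceding lists for a change with the scaling were named after their values were seen. Cebpa averaged 100 CPM in liver against 30.6 in lung (4.37 ± 0.33 SE against the mean, adjusted p = 8.39e-11).

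The 8 hepatocyte markers (Alb, Ttr, Apoa1, Apob, Serpina1a, Cyp2e1, Cps1 and Hnf4a) were seen on their own rows in the livers, except that Hnf4a was at 0 in replicate 3. Ttr held 14.1 to 99.3 CPM and Cyp2e1 21.1 to 220. In both, as in Cps1 at 218, 110, 31.7 and 195 CPM, replicate 3 was lowest. Cps1 was called higher (adjusted p = 7.24e-12), and Ttr, Cyp2e1, Serpina1a and Hnf4a did not pass the filter.

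Own rows of 10 Kupffer cell markers summed to 74.0 to 237 CPM in liver and 198 to 414 in the other tissues, with Timd4, Adgre1 and C1qb at 0 in every liver. Those of 10 sinusoidal endothelial markers summed to 15.5 to 53.8 CPM, with Lyve1, Clec4g and Dnase1l3 at 0, those of 10 stellate and fibroblast markers to 3.52 to 34.1, with Col1a1 and Col1a2 at 0, and those of 8 cholangiocyte markers to 0 to 6.21, with 6 at 0. Red blood cell markers summed to 12.65 to 46.7 CPM in liver and up to 139 elsewhere. Of the 4 own rows that could be tested in these lists 0 were called with TMM factors, and Csf1r, Gpr182 and Alas2 were lower with total counts. Of the 4 rows opposite, Zbtb39, opposite Gpr182, and Apex2, opposite Alas2, were called higher against the mean of the other tissues. Both were named after their values were seen. The Apex2 call held with TMM factors only. Lung, with an Apex2 mean of 812 CPM, lay above the 266 CPM of liver, while kidney (178 CPM) and B cell (60.2 CPM) lay below it. The part of these other cell types in the liver differences was not tested.

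Markers of the compared tissues differed by list. Own rows of 20 kidney markers summed to 67.0 to 173.5 CPM in liver, 608 to 725 in kidney, 166 to 307 in lung and 110 to 164 in B cell, and of the 5 tested 0 were called. Own rows of 18 lung markers summed to 3.52 to 26.7 CPM in liver and 419 to 769 in lung, with 1 of 6 lower, and those of 20 B cell markers to 0 to 6.33 in liver and 257 to 620 in B cell, with 0 of 4 called. Rows opposite the kidney markers summed to 0 to 17.6 CPM in liver and 20680 to 28660 in kidney, and 3 of 5 tested were lower in liver. Rows opposite the B cell markers summed to 3.10 to 16.7 CPM in liver and 4243 to 7089 in B cell, and 3 of 4 were lower. Rows opposite the lung markers summed to 719 to 1566 CPM in liver, 1996 to 2916 in kidney, 3678 to 5296 in lung and 273.5 to 478 in B cell, and 1 of the 2 was higher in liver. D330041H03Rik, opposite Abca3, made up a mean of 907 CPM in liver and was not that row (adjusted p = 0.139, named after its values were seen).

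The 5 features furthest below the other tissues were Fndc9, Gm15396, Gm16214, Gm27042 and Gm26574. Fndc9 lies over the body of Cyfip2, a regulator of actin, and had 0 counts in all livers, against 110 to 229 CPM in kidney, 33.8 to 145 in lung and 396 to 661 in B cell (adjusted p = 1.12e-08). Gm15396, opposite the aspartic protease gene Napsa of kidney and lung, held 2534 to 6032 CPM in kidney and 0 to 3.52 in liver (adjusted p = 1.49e-09). Gm16214 and Gm26574, opposite Sorl1 and Ptpn14, and Gm27042, 971 bp from Aldh18a1, had 0 counts in all livers. All 5 were also lower with total counts.

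Tsix and Xist, the antisense pair of X inactivation, show the 2 rows of a pair where the transcript on 1 strand is well known. Xist, which coats the inactive X, had a mean of 72.7 CPM in liver on its own row, and Tsix, known mainly from early embryonic cells, had 1978 CPM. Neither was called against the mean of the other tissues with TMM factors (adjusted p = 0.848 for Xist and 0.736 for Tsix), but Xist was lower than in lung, where it averaged 771 CPM (log2 difference -1.97 ± 0.58 SE, adjusted p = 0.00662). With total counts both were lower than the mean (-1.31, adjusted p = 0.0391, and -1.06, adjusted p = 0.0116). The strand setting of the counting step is not given in the sources used here, and whether a row's reads came from the strand of its own gene was not tested.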

How the data were processed

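Per the labels, total RNA of liver (4 samples), kidney (4), lung (4) and B cell (5) was sequenced, and Trimmomatic, STAR and RSEM are among the tools that the submitters' notes name, with the mm10 build. The authors deposited 1 RSEM gene table per sample with an expected count and TPM per gene, the first not normalized and the second scaled for length and depth. The strand setting and version of RSEM are not given in the sources used here. Expected counts were rounded to whole numbers for the tests, and 94.8% of those above 0 were whole already. Of 53715 genes, 53620 were matched to GENCODE vM21 for positions and strands. DNase I hotspots were deposited as peak lists with a −log10 score, called by the authors on pooled samples per hybrid and tissue, and only their positions were used.

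Features were filtered by filterByExpr and fitted over all 17 samples with edgeR 4.0.16 (R 4.3.3, TMM factors, quasi-likelihood test, Benjamini-Hochberg adjustment). The contrast was liver against the unweighted mean of the log levels of the other 3 tissues, or against each of them. Library measures were compared by exact permutation tests (scipy 1.17.1). The steps were tested on simulated data. Replicate samples differed by more than sampling noise. Alternatives used DESeq2 1.42.0, limma 3.58.1 on log2(TPM + 1), other filters and scalings, hybrid as a covariate, and each sample left out.

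Named are the 20 called features with the largest rise and a liver mean of 50 CPM, the 10 of highest liver level, the 5 with the largest fall, the genes opposite them, up to 4 per list by liver level, and Xist with Tsix. Members and lists were chosen with earlier results of these data known. Some genes and sequences, and a search of promoters for motifs, are not reported here.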

Additional observations from a re-analysis of the deposited data

Results flagged for a closer look

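In 48 groups of 4 or 5 samples, 2 had a sample far from the others, where chance alone sets apart about 1 group in 20. Features with exons opposite other exons held 73.747% of the counts in lung replicate 1, against 83.3% to 84.4% in the other lung samples. Gm44729, opposite Sephs2, stood at 24160.3 CPM in liver replicate 1, against 12202 to 13945 CPM in the other livers.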

How the results depend on the processing

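Of 972 alternative values for the named features, 956 kept their direction and their side of the threshold. Tsix turned from 0.14 to -1.064 with total counts and -1.169 with limma, and Gm26825 from 1.26 to -0.002388 and -0.002943. With total counts, features higher and lower in liver numbered 456 and 2618 against the mean of the others, 251 and 1376 against kidney, 341 and 2964 against lung, and 729 and 2579 against B cell. With limma on log2(TPM + 1) they were 370 and 3168, 225 and 1665, 322 and 3064, and 648 and 2652 in the same order. With no filter on low counts they were 1663 and 1536 against the mean, 695 and 1348 against kidney, 2295 and 2403 against B cell, and 2819 were lower than in lung. At 10 CPM in 4 samples 1072 were lower than in kidney and 2088 lower than in lung. Among features with no opposite exon, which are fewer, they were 341 and 250, 159 and 219, 331 and 440, and 441 and 445. With the 13 other samples as one group 409 and 501 were called, and with liver and B cell alone 795 were higher. The cause was not tested.

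With each sample left out in turn, features higher and lower numbered 839 to 1074 and 849 to 1126 against the mean, 384 to 530 and 662 to 784 against kidney, 760 to 970 and 1298 to 1757 against lung, and 1197 to 1384 and 1207 to 1465 against B cell. The excess of liver in the share of the 10 highest features was 10.42 to 15.51 percentage points, in the share on opposite-exon features 4.101 to 5.367, and in features at 1 CPM -5042 to -4130. The opposite-exon excess was 2.685 without the 10 highest features and 0.4871 with gene bodies. The labels give the samples no replicate numbers to pair them by. A fit with hybrid as a covariate left out B cell replicate 1, the B6xCAST sample. In it 1002 features were higher and 952 lower than the mean of the others. Totals of 283725 to 322257 counts leave liver levels of a few CPM resting on single counts.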
